A study of Mus musculus with 8 samples.

Results

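Fixed windows of 1 Mb that hold at least 700 CpGs measured by oxidative reduced representation bisulphite sequencing (oxRRBS) were examined in neural precursor cells (NPCs) after knockdown (KD) of *Tet3*. The windows were chosen from the chromosome and base of the listed CpGs alone, without any methylation value, and 275 of the 2411 autosomal windows with a listed CpG passed (11.4%). These windows held 283604 CpGs, which is 38.2% of the autosomal CpGs listed. They are called gene-rich here because they also held 6885 protein-coding genes, 32.3% of those on the autosomes, with a median of 23 genes per window against 5 in the other 2136 windows.

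The cells came from neural differentiation of A2lox.cre mouse ES cells, a line derived from male E14 cells of strain 129P2/OlaHsd, with an integrated doxycycline-inducible shRNA. The control cells carried the Scrambled, non-targeting shRNA (shScr), the KD cells carried an shRNA that the labels name only by its target (shTet3), and both received doxycycline at 2 µg/ml for 5 days. Each shRNA had 2 replicates, and the DNA of each replicate gave 2 libraries. In the bisulphite (BS) library 5mC and 5hmC are both read as methylated, and in the oxidative bisulphite (oxBS) library only 5mC is. The labels do not say whether replicates are separate cultures or clones, so the p-values measure the spread between these libraries. Gene expression was not measured in these libraries, so that neither the depth of the KD nor the identity of the NPCs could be checked from them.

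In mammals most CpGs outside promoters carry 5mC, laid down by DNMT3 enzymes and copied at replication by DNMT1 with UHRF1. CpG-dense promoters of active genes stay free of it. TET enzymes, among them TET3, oxidise 5mC to 5hmC and further products, a step towards its removal. Gene-dense chromosome segments are GC-rich, contain many CpG islands and are replicated early, so they place unmethylated promoters next to methylated gene bodies.

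Both states stand side by side in the window with the most listed CpGs, chr10:80000000-80999999 (mm9). Printed first is a stretch of 191 bases with 25 listed CpGs in a promoter, at chr10:80813293-80813483. Its middle lies 163 bases from the start of *Hmg20b*. The second stretch has 127 bases and 9 listed CpGs, and lies in an intron of *Gng7*, a G protein gamma subunit, at chr10:80434519-80434645. Both are shown 5′ to 3′ on the forward strand with the listed CpGs in capitals.
*Hmg20b* promoter: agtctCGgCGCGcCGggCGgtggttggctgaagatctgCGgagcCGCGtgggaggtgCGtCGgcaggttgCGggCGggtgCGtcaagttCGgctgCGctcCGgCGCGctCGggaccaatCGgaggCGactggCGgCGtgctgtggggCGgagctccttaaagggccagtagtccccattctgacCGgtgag
*Gng7* intron: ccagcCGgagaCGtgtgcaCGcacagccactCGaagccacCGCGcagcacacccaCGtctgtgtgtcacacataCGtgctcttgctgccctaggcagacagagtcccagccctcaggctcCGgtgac
In the *Hmg20b* stretch the mean methylation of these CpGs was at most 0.286% in every one of the 8 libraries. The *Gng7* stretch had BS levels of 70.2% and 92.9% with shScr and of 59.6% and 71.1% with shTet3. Its oxBS levels were 74.4% and 86.9% with shScr and 75.9% and 61.3% with shTet3, so that the oxBS groups overlapped.

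The gene-rich windows held between 701 and 3215 listed CpGs (median 945), against a median of 167 in the others. The windows at the threshold overlapped in gene number. The 4 windows just inside it had 701 listed CpGs and 12, 22, 19 and 15 genes, and the next below it had 698, 696 and 693 listed CpGs and 8, 11 and 20 genes. Gene-rich windows were found on 19 of 19 autosomes, from 3 on chromosome 18 to 34 of the 119 windows of chromosome 11 (28.6%). They clustered, and 208 of the 275 had a gene-rich neighbour. The longest run spanned 11 Mb on chromosome 4 from 131 Mb, and another of 6 Mb began at 115 Mb on chromosome 11.

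Their median GC content was 47.6%, against 41.2% in the other windows. They held a median of 13118 CpGs and of 1142 CCGG sites, the sequence cut by MspI, against 7578.5 and 519.5. Across the 2411 windows the number of listed CpGs had a Pearson correlation of 0.930 with the number of CCGG sites and of 0.713 with the number of genes, given as a description since listing requires a nearby CCGG site. In the median gene-rich window 50.2% of listed CpGs lay in promoters (1 kb upstream to 0.5 kb downstream of a start site), 75.8% lay in genes, and 33.3% had a mean level above 40% in the shScr BS libraries. The label gene-rich is not exclusive, because 87 of the other windows also held 23 or more genes. The plot of genes against listed CpGs shows both groups.

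**Figure D1:**
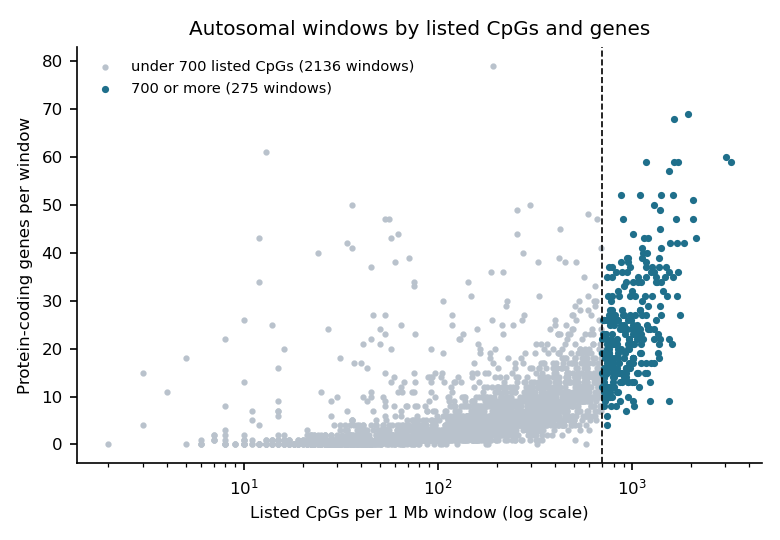
Protein-coding genes per 1 Mb window (y axis) against the listed CpGs of the window (x axis, log scale) for the autosomal windows, with the threshold of 700 as a dashed line. The 275 gene-rich windows held 4 to 69 genes, and windows to the left of the line held 0 to 79.

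The libraries held 42516767 to 61865967 calls, of which gene-rich windows took 37.2% to 39.3% of the autosomal ones. The median coverage of their CpGs was 45 to 60 per library, against 42 to 51 in the other windows, and a CpG entered a comparison if each of its 4 libraries covered it 10 times or more. Reads were amplified without molecular identifiers, so tests on read counts cover counting error only. Before any comparison, the shScr replicates stood apart from each other. At CpGs above 40% in gene-rich windows, replicate 2 lay 11.2 percentage points above replicate 1 in BS and 11.3 points above it in oxBS, whereas the shTet3 replicates differed by 0.635 and 0.194 points.

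To ask how much methylation was present after *Tet3* KD, the CpGs of each gene-rich window were split at 40% of the mean shScr BS level. Methylated CpGs (above 40%) had lower levels with shTet3 in all 275 windows, as in every other window tested (1998 in oxBS and 2005 in BS). In oxBS the mean over the 275 windows was 67.8% and 79.1% in the shScr replicates (73.4% ± 8.01, SD, n = 2). It was 57.8% and 58.0% in the shTet3 replicates (57.9% ± 0.137, n = 2), over 82869 CpGs. In BS it was 68.8% and 79.96% with shScr (74.4% ± 7.90) and 57.8% and 58.5% with shTet3 (58.2% ± 0.449), over 85969 CpGs. The groups did not overlap in either kind of library. The difference was −15.5 points in oxBS and −16.2 points in BS, or 21.1% and 21.8% of the shScr level. The two-sided exact permutation test gave p = 0.333 for both, the smallest that 2 libraries against 2 allow.

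The size of this difference rests on which shScr replicate is used. Without shScr replicate 1 it was −21.2 points in oxBS and −21.8 in BS, and without shScr replicate 2 it was −9.85 and −10.6. The class of a CpG was set in shScr BS libraries that also enter the BS comparison and share their DNA with the oxBS libraries. With the class set in replicate 1 and the change taken against replicate 2 the difference was −20.3 points in oxBS and −20.4 in BS, and with the roles exchanged it was −9.16 and −9.45. The direction was kept in each of these cases.

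Both shTet3 libraries lay below both shScr libraries in 275 of 275 gene-rich windows in oxBS, where 97% of all windows tested did so, and likewise in BS, where 97.9% did. The gene-rich windows are thus near the background in this count. Their oxBS differences ranged from −19.6 to −10.9 points (median −15.4, SD 1.61), which is 15.04% to 28.7% of the window's shScr level. By limma on window means with Benjamini-Hochberg adjustment, 0 gene-rich windows were called (0% of all windows), with a smallest adjusted p of 0.0755 in oxBS and 0.0572 in BS. At an unadjusted limma p under 0.05, 152 were lower in oxBS (background 64.4%) and 199 in BS (background 74.6%). The number of windows called was not stable when 1 library was left out. A fit with a lone shScr library takes its spread from the shTet3 libraries alone, so its calls do not measure the spread between controls.

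CpGs at or below 40% made up most of the CpGs in these windows and carried little methylation. In oxBS their mean was 3.61% and 4.92% with shScr and 3.15% and 3.23% with shTet3, a difference of −1.07 points. In BS it was 3.63% and 4.84% with shScr and 3.35% and 3.41% with shTet3, a difference of −0.850 points. The groups did not overlap (exact permutation p = 0.333 for both), and the difference was 25.1% and 20.1% of the low shScr level. Both shTet3 libraries lay below both shScr libraries in 170 windows in oxBS (61.8%, background 52.5%) and in 138 in BS (50.2%, background 42%). By limma 0 windows were called, and 4 had an unadjusted p under 0.05 in oxBS (background 5.98%) and 0 in BS (background 3.49%). Without shScr replicate 1 the mean difference was −1.70 points in oxBS and −1.45 in BS, and without shScr replicate 2 it was −0.427 and −0.249 points.

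**Figure D2:**
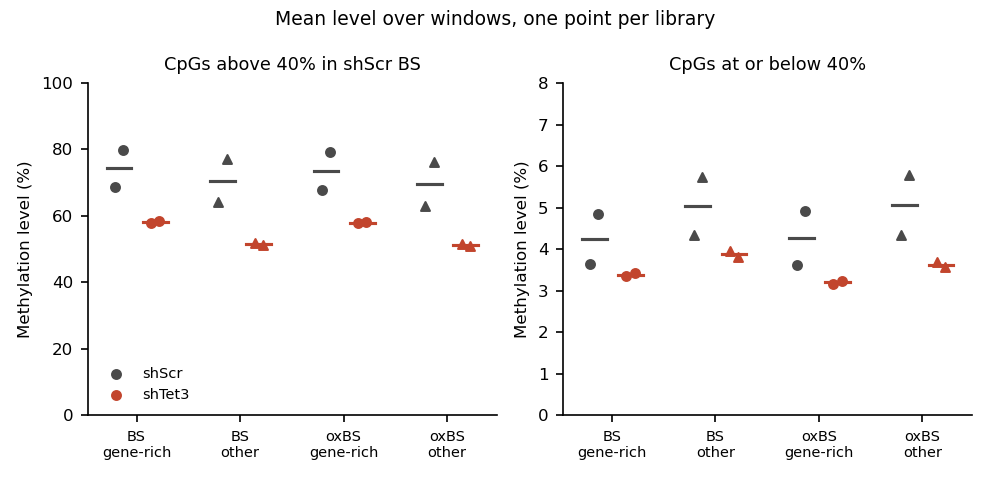
Mean methylation level in percent (y axis) per library, by library type and window set (x axis), at CpGs above 40% and at or below 40%, for gene-rich windows (circles) and the other windows (triangles), where each bar is the mean of the 2 replicates. At CpGs above 40% the 2 shTet3 oxBS libraries sit at 57.8% and 58.0% in gene-rich windows, below shScr libraries at 67.8% and 79.1%.

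The difference at methylated CpGs was smaller in gene-rich windows than elsewhere. The other windows had oxBS levels of 62.8% and 76.2% with shScr and of 51.5% and 50.9% with shTet3, a difference of −18.3 points or 26.3% of the level (in BS −19.0 points, 27.0%). Gene-rich windows therefore lay above the others by 4.92 and 2.89 points in the shScr oxBS libraries and by 6.32 and 7.07 points in the shTet3 oxBS libraries. This gap was larger by 2.79 points with shTet3, and by 2.84 points in BS, without overlap between groups (exact permutation p = 0.333). Without shScr replicate 2 it was larger by 1.77 points in oxBS and 1.97 in BS, and without shScr replicate 1 by 3.82 and 3.71. The difference between window classes had the same direction on 19 of 19 autosomes in both kinds of library. It ran from 1.66 points on chromosome 2 to 3.82 on chromosome 18 in oxBS. All autosomes were read in the same libraries, so they do not count as replicates.

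The change followed the number of listed CpGs on both sides of the threshold. In oxBS it was −19.6 points in windows with fewer than 100 listed CpGs, and −16.4 points in the 375 windows with 400 to 700. It was −15.9 points in the 158 windows with 700 to 1000, −15.2 in the 93 with 1000 to 1500, and −14.3 in the 24 with 1500 or more. The corresponding BS values for the 3 gene-rich bins were −16.6, −15.8 and −15.0. Across these 3 bins the shTet3 oxBS levels were 57.4% and 57.7%, 58.3% and 58.3%, and 58.6% and 58.8%, while shScr replicate 1 was at 67.8%, 67.9% and 66.9% and shScr replicate 2 at 79.1% in each. The border of 700 is a point on a gradient in these bins.

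**Figure D3:**
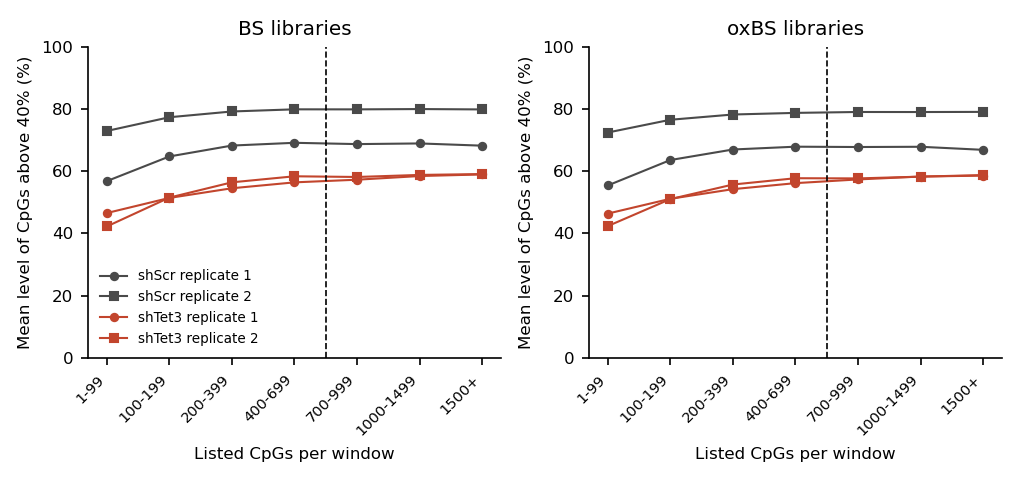
Mean level in percent of CpGs above 40% (y axis) in each library against the listed CpGs of the window in 7 bins (x axis), for BS and oxBS, with the threshold of 700 as a dashed line. Levels in the shTet3 oxBS libraries are 46.4% and 42.4% in the lowest bin and 58.6% and 58.8% in the highest, where shScr libraries are at 66.9% and 79.1%.

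The number of listed CpGs and the number of genes could be set apart in part. Among windows with 23 or more genes, the 141 gene-rich ones had an oxBS difference of −15.1 points and the 82 others one of −17.4 points, 2.35 points apart. Among windows with fewer genes the gene-rich ones were also 2.35 points apart from the others, with no overlap between groups. Within the gene-rich windows, those with 23 or more genes differed by 0.938 points in oxBS and 0.863 in BS from those with fewer (exact permutation p = 0.333 for each of these comparisons). Median coverage was also higher in gene-rich windows, and across them the oxBS difference had a Pearson correlation of 0.206 with coverage, 0.323 with listed CpGs and 0.332 with genes. These are descriptions over windows that share libraries, and the part of coverage in the differences was not tested.

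Starting level and location were compared next. In oxBS the difference of gene-rich CpGs was −0.215 points at shScr BS levels up to 10%, grew to −17.8 points between 70% and 80%, and was −11.4 points between 90% and 100%. At equal starting level the gene-rich CpGs still differed from the others, by 1.05 to 2.05 points in the 7 oxBS bins above 30%, without overlap between groups. In BS they did so by 1.73 to 2.62 points in the 5 bins above 50%. In the bins up to 30%, the groups overlapped in both kinds of library.

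**Figure D4:**
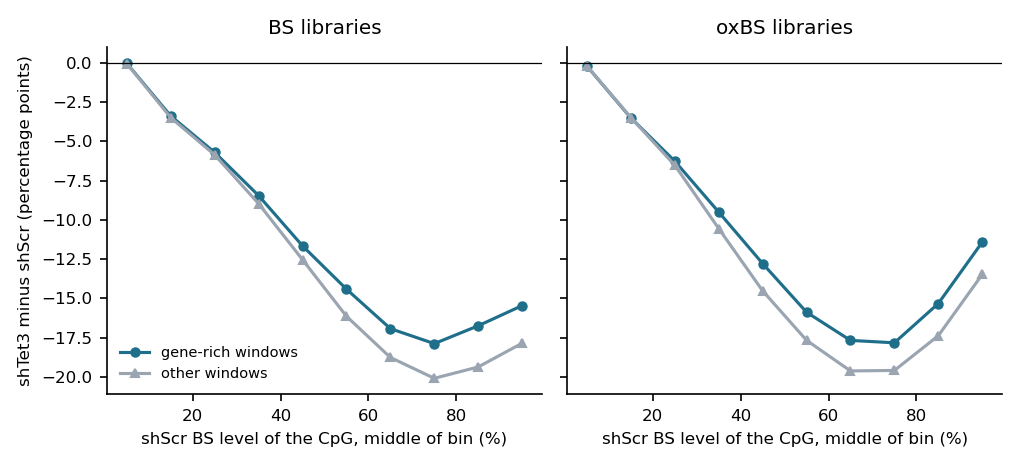
Difference between shTet3 and shScr in percentage points (y axis) by the shScr BS level of the CpG in bins of 10 points (x axis), for gene-rich and other windows. The difference is largest between 60% and 80% in oxBS, at −17.7 and −17.8 points in gene-rich windows and −19.6 in both bins in the others.

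Most methylated CpGs of gene-rich windows lay in gene bodies (68.5%), followed by intergenic sequence (23.3%) and promoters (8.18%). In gene bodies the oxBS levels were 69.99% and 81.4% with shScr and 60.4% and 60.9% with shTet3, a difference of −15.01 points. Intergenic CpGs had 63.6% and 75.5% with shScr and 53.1% and 51.7% with shTet3 (−17.2 points), and methylated promoter CpGs had 61.3% and 71.1% against 52.2% and 52.2% (−14.0 points). Gene bodies and intergenic CpGs of gene-rich windows differed from those elsewhere by 1.71 and 1.55 points, with no overlap between groups (exact permutation p = 0.333). Methylated promoters differed by 0.0225 points with overlapping groups (exact permutation p = 1). At or below 40%, promoters supplied 72.0% of the CpGs and differed by −0.482 points between shTet3 and shScr.

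To find single CpGs, a logistic regression on read counts was run at every listed CpG with enough coverage in the 4 libraries of a kind, 662455 in oxBS and 659124 in BS, and differentially methylated positions (DMPs) were called at a *q* value under 0.01 and more than 10 points. In gene-rich windows 31576 of 250303 CpGs were hypo-DMPs in oxBS (12.6%), slightly under the 13.9% of all CpGs tested, and 31563 of 249068 were in BS (12.7%, background 13.8%). Hyper-DMPs numbered 212 in oxBS (0.0847%, background 0.0814%) and 176 in BS (0.0707%, background 0.0621%). The hypo-DMPs had a median oxBS difference of −23.4 points, and at 91.7% of them the replicates did not overlap (background 91.9% of all oxBS hypo-DMPs). Since they were called in these same libraries, the size and the lack of overlap are no separate support. Of the oxBS hypo-DMPs, 66.0% lay in gene bodies, 25.0% were intergenic and 9.0% lay in promoters.

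Above 40%, 33.8% of gene-rich CpGs were hypo-DMPs in oxBS (28050 of 82869) against 38.0% in the other windows. At or below 40% the shares were 1.53% and 1.56%. An F test with overdispersion takes the spread between replicates into account, but with 2 libraries a group it has few degrees of freedom. It called 0 hypo-DMPs and 0 hyper-DMPs, which at this *q* value cannot tell absent changes from a lack of power. The count also depended on single libraries, with 13267 oxBS hypo-DMPs without shScr replicate 2, 41306 without shScr replicate 1, and 19792 without shTet3 replicate 1. Every gene-rich window had oxBS hypo-DMPs, from 25 to 319 per window with a median of 106. These windows were chosen for many listed CpGs, and the share of all windows with a hypo-DMP was not counted. Their presence in every window is therefore no trait of gene-rich windows. Per window, hypo-DMPs were 3.57% to 31.0% of the CpGs tested (median 12.3%), against 13.9% of all CpGs tested in oxBS.

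DMPs were also looked up in the other kind of library, which was made from the same DNA. Of the oxBS hypo-DMPs that could be tested in BS, 95.8% had the same sign there and 47.2% were also DMPs. Of the oxBS hyper-DMPs, 94 of 195 had the same sign in BS (48.2%) and 15 were also DMPs. Without shScr replicate 2, the number of oxBS hyper-DMPs was 1313.

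At least 1 oxBS hyper-DMP was present in 116 of the 275 gene-rich windows and in 12.2% of all 2410 autosomal windows with a tested CpG, most of which list fewer CpGs. The window chr7:20000000-20999999 had 13 in oxBS and 1 in BS, and chr2:152000000-152999999 had 12 in oxBS and 27 in BS. The latter contains *Mcts2*, an imprinted retrogene inside *H13* whose promoter is methylated on the maternal allele. The stretch of the *Mcts2* promoter with the most hyper-DMPs lies at chr2:152512757-152512883, with its middle 64 bases from the start of *Mcts2*. It is shown on the forward strand with its 9 listed CpGs in capitals, each of which was a hyper-DMP in BS and in oxBS.
*Mcts2* promoter: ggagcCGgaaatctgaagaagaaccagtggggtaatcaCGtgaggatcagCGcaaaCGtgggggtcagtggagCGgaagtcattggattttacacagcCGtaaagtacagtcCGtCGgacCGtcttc
Over the 26 CpGs of this promoter the oxBS levels were 28.8% and 7.93% with shScr and 30.8% and 22.1% with shTet3. The low value of shScr replicate 2 was also present in BS (26.7% and 6.35% against 28.1% and 25.4%). The groups overlapped in oxBS, and the limma adjusted p was 0.827.

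At least 3 oxBS hyper-DMPs were present in 6 of the 4411 promoters measured in gene-rich windows, against 10 of all 11382 (0.0879%). Besides *Mcts2*, the promoter of *Fv1*, a retrovirus restriction factor whose promoter CpGs are shared with *Miip*, had 7, CT009512.1 had 4, and *Apoe*, *Nr4a1* and *Hsf5* had 3 each. For *Fv1* the oxBS levels were 13.3% and 9.27% with shScr and 20.4% and 10.5% with shTet3, so that 1 shTet3 library was high. In CT009512.1 the shScr replicates were at 28.9% and 74.6%, on either side of both shTet3 libraries. Both shTet3 libraries lay above both shScr libraries in *Apoe* and *Nr4a1*. For *Nr4a1*, an immediate early nuclear receptor, oxBS levels were 7.57% and 4.48% with shScr and 8.29% and 8.08% with shTet3, whereas its BS groups overlapped.

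The 8 windows with the most listed CpGs had a mean oxBS difference of −13.2 points (−13.8 in BS), smaller than that over all 275. The window chr10:80000000-80999999 had 3215 listed CpGs and 59 genes, with oxBS levels above 40% of 66.3% and 81.8% with shScr and of 60.5% and 61.0% with shTet3 (−13.3 points). Its neighbour chr10:79000000-79999999 had 3043 listed CpGs and 60 genes, with levels of 64.8% and 79.1% against 59.8% and 59.4% (−12.4 points). In both, the shTet3 libraries lay close together and below shScr replicate 1. The remaining 6 ranged from −14.5 points (chr8:73000000-73999999) to −12.0 points (chr11:115000000-115999999), and without shScr replicate 2 the 2 windows on chromosome 10 had differences of −5.47 and −5.26 points.

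Several of the genes with the most listed CpGs in these windows had an unmethylated promoter and a methylated body. *Zbtb7a*, a transcriptional repressor, had promoter levels of 0.933% and 1.93% with shScr and 1.13% and 0.788% with shTet3 in oxBS. Its body was at 64.2% and 77.9% with shScr and at 57.9% and 57.4% with shTet3, with 16 hypo-DMPs. *Fasn*, the fatty acid synthase, had a promoter level of at most 0.247% in the 4 oxBS libraries and a body at 65.1% and 72.6% against 58.2% and 63.2%. *Sf3a2*, a splicing factor subunit, had 116 of its 120 listed CpGs in the promoter, where the highest oxBS level was 0.119%.

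Other bodies spanned a wide range. *Rela*, the p65 subunit of NF-κB, was at 55.1% and 80.3% with shScr and 54.7% and 48.8% with shTet3 (−16.0 points), and its shScr replicates lay further apart than the group means. *Ppfia3*, a presynaptic scaffold protein, was at 53.1% and 65.3% against 44.99% and 43.5% (−15.01 points, 20 hypo-DMPs). *Bahcc1*, which had the most listed CpGs of these genes (260), was at 41.7% and 49.2% against 38.4% and 35.2% (−8.62 points, 26 hypo-DMPs). In the body of *Onecut3*, a homeobox factor with 117 listed CpGs there, levels were low throughout, at 9.25% and 8.27% against 7.88% and 5.69%. The body of *Hcn2*, a pacemaker channel, overlapped between groups at 44.9% and 63.4% against 48.0% and 48.4%. None of the 7 bodies named here, *Zbtb7a* and *Fasn* included, passed limma (adjusted p 0.182 to 0.558).

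At the extremes, the largest oxBS differences were −19.6 points in chr8:13000000-13999999, chr5:113000000-113999999 and chr10:62000000-62999999. The window on chromosome 5 had oxBS levels of 63.8% and 75.5% with shScr and 52.9% and 47.1% with shTet3. It was unlike the typical gene-rich window in that 11.8% of its listed CpGs lay in promoters, 68.0% were above 40%, and 31.0% of the CpGs tested were hypo-DMPs. The smallest differences were −10.9 points in chr7:4000000-4999999 (62.2% and 80.005% against 58.8% and 61.6%) and −11.9 points in chr11:87000000-87999999 and chr5:143000000-143999999. The limma adjusted p was 0.0755 for the 3 largest and 0.174 for chr7:4000000-4999999.

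Differences between gene-rich windows were not shared by the replicate pairs. Across the 275 windows the oxBS change of replicate 1 (shTet3 minus shScr) had a Pearson correlation of −0.146 with that of replicate 2, and of −0.109 with the numbers crossed. The correlation of 0.775 between the oxBS and BS changes is one between libraries of the same DNA. The order of single windows is therefore given as a description. Of the 19 autosomes chromosome 11 had the smallest mean difference, with −13.9 points over its 34 gene-rich windows against −15.7 over the 241 on other chromosomes. The gap between these was −0.167 and 0.151 points in the shScr oxBS libraries and 1.29 and 2.39 in the shTet3 ones, a difference of 1.85 points (1.86 in BS; exact permutation p = 0.333). The other windows of chromosome 11 differed from those elsewhere by 2.47 points, so this was not particular to the gene-rich ones.

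Promoters of gene-rich windows were mostly unmethylated. Of the 4411 with enough CpGs in oxBS, 79.1% had an shScr level under 10% and 7.19% one over 40%, and their median difference was −0.137 points. By limma 0 were called (0% of all promoters; smallest adjusted p 0.807), while 176 were lower and 35 higher at an unadjusted p under 0.05 (background 4% and 1.03%). The replicates lay apart with shTet3 lower in 1258 (28.5%, background 26.9%) and with shTet3 higher in 295 (6.69%, background 7.27%). At least 3 hypo-DMPs were present in 369 promoters (8.37%, background 6.95%), and at least 1 hyper-DMP in 35 (0.793%, background 1.02%). In BS, limma also called 0, with 172 lower (background 4.32%) and 54 higher (background 1.28%) at an unadjusted p under 0.05.

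Among promoters measured in all 8 libraries whose oxBS replicates lay apart, the largest negative differences were found where shScr methylation was high. *4732471J01Rik* had the largest, from 82.5% and 89.9% with shScr to 49.3% and 59.6% with shTet3 (−31.7 points), and 6 of its 7 CpGs were hypo-DMPs. *Ctcfl*, the germ cell paralogue of the insulator factor CTCF, was at 76.5% and 78.8% against 51.9% and 50.03% (−26.7 points), and each of its 6 CpGs was a hypo-DMP. That the oxBS groups lay apart follows from how these promoters were chosen. In BS *4732471J01Rik* was at 63.8% and 81.4% with shScr and 42.5% and 60.9% with shTet3 (−20.9 points), with 2 hypo-DMPs. In BS the difference of *Ctcfl* was −13.3 points, at 70.9% and 67.4% against 61.1% and 50.7%.

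The promoter of *C130026L21Rik* had 14 CpGs and 9 hypo-DMPs, and its oxBS levels of 68.4% and 58.7% with shScr compared with 38.2% and 32.6% with shTet3 (−28.2 points, −22.6 in BS). Its stretch with the most hypo-DMPs has 8 listed CpGs, of which 6 were hypo-DMPs, at chr5:112010537-112010623. The stretch is printed on the forward strand with the listed CpGs in capitals. In it the oxBS level was 73.6% and 52.2% with shScr and 44.5% and 32.8% with shTet3.
*C130026L21Rik* promoter: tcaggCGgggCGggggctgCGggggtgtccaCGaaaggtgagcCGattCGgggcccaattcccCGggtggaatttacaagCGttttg

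*Hes3*, a bHLH repressor of neural stem cells, was at 53.3% and 58.7% with shScr and at 40.3% and 16.7% with shTet3 in oxBS (−27.5 points). *Il11*, a cytokine, was at 76.8% and 61.2% against 44.8% and 39.8% over 5 CpGs. *Hpd*, an enzyme of tyrosine breakdown, was at 58.5% and 75.5% against 46.2% and 35.4% with 7 hypo-DMPs at 9 CpGs. In BS the differences of *Hes3*, *Il11* and *Hpd* were −23.4, −15.0 and −22.0 points, with 0 hypo-DMPs at the 9 CpGs of *Il11*. *Gm17416*, *Znrf4*, *Gm749* and *Pabpc1l* had differences between −29.0 and −26.6 points, and their BS groups lay apart in the same direction. Their BS differences were −28.7, −20.2, −25.9 and −13.5 points, and *Pabpc1l* had 0 hypo-DMPs in BS. *Ptk6*, a cytoplasmic tyrosine kinase, and *Cyp1a1*, a cytochrome P450, rested on shScr replicate 2. *Ptk6* was at 34.5% and 77.5% with shScr and 29.5% and 24.2% with shTet3, and its BS groups overlapped with a difference of −4.72 points. *Cyp1a1* was at 29.0% and 59.8% against 27.4% and 8.61%.

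The promoters with higher oxBS levels after KD had small differences at low levels. *Creb3l1*, a transcription factor of the endoplasmic reticulum, was at 0.526% and 6.798% with shScr and 8.93% and 11.54% with shTet3 (6.57 points). *Cox6b2*, a testis isoform of a cytochrome c oxidase subunit, was at 0.980% and 3.24% against 7.04% and 8.14%, and its BS groups also lay apart at 1.90% and 3.96% against 6.56% and 12.8%. *Apoe*, a lipid transport protein, was at 2.73% and 2.97% against 5.53% and 7.53% with 3 hyper-DMPs, whereas its BS groups overlapped at 2.69% and 3.07% against 2.76% and 4.83%. Only *Cox6b2* of the 6 promoters named as higher had non-overlapping BS groups in the same direction. *Hspa12b*, an HSP70 family member, differed by 3.95 points in oxBS and by −8.82 points in BS. *2600006K01Rik* and *Cercam*, which overlap on opposite strands, differed by 5.31 and 3.77 points in oxBS and by 1.16 and 0.906 points in BS. Without shScr replicate 1 the oxBS differences of *2600006K01Rik*, *Hspa12b* and *Cercam* were −0.682, −1.13 and −0.929 points, over 16, 7 and 22 measured CpGs in place of 8, 5 and 10. The limma adjusted p was 0.807 for each of the 18 promoters named.

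**Figure D5:**
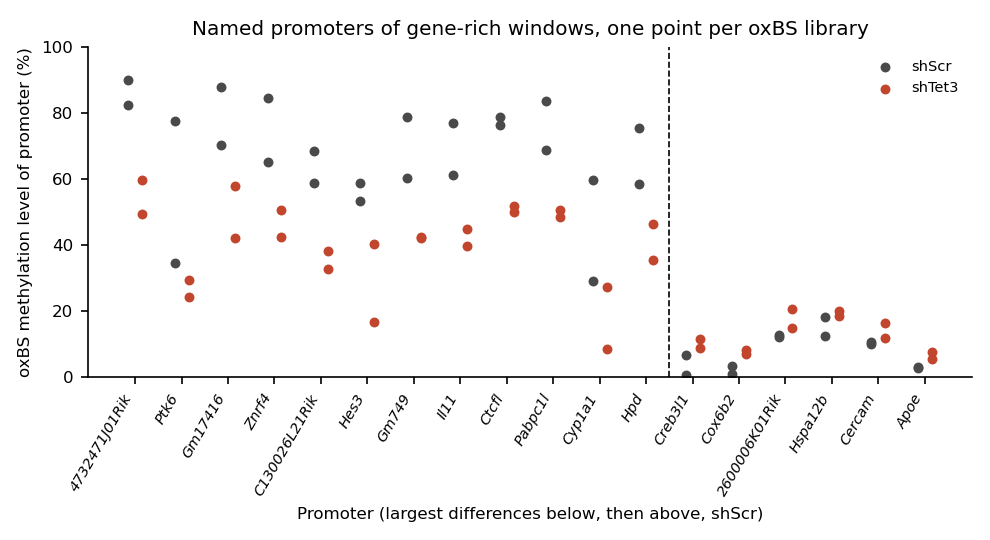
Mean oxBS level in percent (y axis) of the 18 named promoters (x axis) in each of the 4 oxBS libraries, where points are libraries and the dashed line separates the 12 lower from the 6 higher promoters. The 12 lower promoters span −31.7 to −26.2 points and the 6 higher ones 3.68 to 6.57 points.

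Gene bodies carried most of the methylation, and 72.5% of the 2666 measured in gene-rich windows had an oxBS shScr level over 40%. Their median difference was −11.55 points. Both shTet3 libraries lay below both shScr libraries in 2037 (76.4%, background 77.2%) and above them in 18 (0.675%, background 0.671%). At least 3 hypo-DMPs were present in 1849 bodies (69.4%, background 68.6%) and at least 1 hyper-DMP in 96 (3.601%, background 2.83%). By limma 0 were called in gene-rich windows (smallest adjusted p 0.153), and 2 of all 6109 bodies were (0.0327%). At an unadjusted p under 0.05, 714 were lower (background 31.4%) and 2 higher (background 0.0818%) in oxBS. In BS, limma also called 0, with 719 lower (background 31.9%) and 2 higher (background 0.067%). The number of bodies called was not stable when 1 shScr library was left out, a fit that takes its spread from the shTet3 libraries alone.

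Among bodies measured in all 8 libraries, the largest oxBS differences were seen in *Tpte*, a testis phosphatase, in *4931409K22Rik*, and in *Scn11a*, a sodium channel of sensory neurons. *Tpte* was at 76.4% and 86.7% with shScr and at 51.3% and 57.7% with shTet3 (−27.1 points). *4931409K22Rik* was at 66.7% and 77.3% against 46.9% and 43.5% (−26.8 points). *Scn11a* was at 66.1% and 78.8% against 47.9% and 43.7% (−26.7 points), and 15 of its 22 CpGs were hypo-DMPs. The bodies of *Ush1g*, *Fam164c*, *Pklr*, *Ly6h* and *C4b* had differences between −25.5 and −25.1 points. In BS their differences ranged from −25.5 points in *Ly6h* to −11.51 in *Ush1g*, where the groups overlapped. Each of these bodies had an oxBS adjusted p of 0.153.

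Of the bodies with higher oxBS levels, *Fbxl8*, an F-box protein, was at 6.53% and 17.02% with shScr and 17.5% and 17.3% with shTet3 (5.65 points). *Hmga1*, a chromatin protein with AT-hooks, was at 8.18% and 7.89% against 10.2% and 11.2% (2.68 points), and *Gm17305* differed by 2.36 points. *Hes5*, a Notch target of neural progenitors, was at 5.70% and 5.07% against 6.11% and 6.19% in oxBS, but at 6.83% and 8.38% against 4.30% and 3.46% in BS. For none of the 4 did the BS groups lie apart with shTet3 higher.

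The 10 gene lists were then read off the same fits, and limma called 0 promoters and 0 bodies in each. Of these lists, 8 had members in gene-rich windows, whereas the clustered protocadherins and the clustered histone genes had 0. Germline genes had 13 members there, and 6 promoters were measured with a median oxBS difference of −15.9 points, against −0.110 over all promoters tested. In 4 of the 6 the replicates lay apart with shTet3 lower (background 26.9% of all promoters), and 5 had at least 3 hypo-DMPs (background 6.95%). *Spo11*, the meiotic recombination enzyme, was at 66.6% and 66.9% with shScr and 53.2% and 45.01% with shTet3. *Piwil2*, a piRNA-binding protein, was at 64.7% and 82.6% against 51.3% and 52.6%. *Tex101* and *Hormad1* differed by −17.02 and −14.8 points, and *Hsf5* by 0.267 points. The median shScr level of the germline promoters was 72.5%, against 0.436% over all promoters.

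The pluripotency list had 6 of 20 members in gene-rich windows. *Pou5f1*, which encodes OCT4, had 5 promoter CpGs at 42.3% and 44.5% with shScr and 39.4% and 48.0% with shTet3 in oxBS. The oxBS groups overlapped, with a difference of 0.288 points, whereas in BS both shTet3 libraries lay below both shScr libraries, at 54.8% and 42.5% against 37.2% and 38.4% (−10.8 points). The list's 4 measured bodies had a median oxBS difference of −1.87 points, and in 1 of them the replicates lay apart with shTet3 lower (background 77.2%). That body, of *Sall4*, a zinc finger factor of ES cells, was at 69.5% and 72.3% against 55.0% and 58.3%, with 15 hypo-DMPs. The bodies of *Klf2*, *Tbx3* and *Lin28a* differed by −3.29, −0.450 and 1.0001 points. The promoters of *Tbx3*, *Sall4* and *Klf2* differed by −2.80, −4.03 and −0.747 points. The median shScr oxBS level of the 4 bodies was 21.7%, against 61.7% over all bodies.

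Of the neural progenitor and patterning genes, 15 of 45 lay in gene-rich windows. Their 14 promoters had a median oxBS difference of −1.65 points and their 13 bodies one of −8.27 points, against −0.110 over all promoters and −11.8 over all bodies tested. Starting levels also differed, with a median shScr oxBS level of 7.74% in these promoters and 29.8% in these bodies. Over all promoters and all bodies it was 0.436% and 61.7%. At least 3 hypo-DMPs were present in 10 of the bodies (background 68.6% of all bodies) and 1 of the promoters (background 6.95%), which was that of *Wnt3* with 9. Both counts lay near the background. *Pax2*, a patterning factor, had a body at 46.4% and 48.5% with shScr and 35.6% and 32.7% with shTet3, with 28 hypo-DMPs at 101 CpGs. *Ntrk2*, the BDNF receptor TrkB, was at 71.8% and 77.5% against 54.4% and 55.3% (−19.8 points) and *Slit1*, an axon guidance ligand, at 61.1% and 71.9% against 52.2% and 44.6% (−18.1 points). In these 3 bodies the groups did not overlap, in BS as well. *Notch1*, a receptor of progenitor maintenance, had a body at 42.8% and 53.2% against 37.8% and 39.5%.

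Of the Wnt ligands and Fz receptors, 13 of 29 were in gene-rich windows. Their 11 promoters had a median oxBS difference of −0.313 points and their 12 bodies one of −6.33 points, against −0.110 and −11.8 over all promoters and bodies. The median shScr oxBS level was 4.99% in these promoters and 31.5% in these bodies, against 0.436% and 61.7% over all. At least 3 hypo-DMPs were present in 9 of the 12 bodies, near the background of 68.6%. *Wnt9a*, a ligand, had a promoter level of at most 0.535% in the 4 oxBS libraries and a body at 66.3% and 77.4% with shScr against 55.7% and 54.4% with shTet3. *Wnt9b*, its paralogue, had a similar body at 61.9% and 76.5% against 53.0% and 52.3%. The promoter of *Wnt10b* was at 40.04% and 35.7% against 30.3% and 29.6% with 3 hypo-DMPs. The receptor genes *Fzd9* and *Fzd2* had body differences of −6.01 and −6.14 points, with overlapping groups in *Fzd2*.

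The 40 annotated Hox entries, in which *Hoxa3* is annotated as 2 genes, were all in gene-rich windows. Their 29 promoters had a median oxBS difference of −1.65 points, against −0.110 over all promoters, and 3 had at least 3 hypo-DMPs (background 6.95%). The median shScr oxBS level of these promoters was 7.90%, against 0.436% over all promoters. *Hoxd12* was at 60.5% and 63.2% with shScr and 43.2% and 44.3% with shTet3, and *Hoxd3* at 46.4% and 40.9% against 29.8% and 25.2%, with 8 and 19 hypo-DMPs. A stretch of a *Hoxd3* promoter at chr2:74574372-74574556, inside the *Hoxd3* gene, is shown on the forward strand with its 12 listed CpGs in capitals. It was the stretch with the most hypo-DMPs (6) within the *Hoxd3* promoter CpGs. Its oxBS level was 46.8% and 39.5% with shScr and 23.9% and 25.0% with shTet3.
*Hoxd3* promoter: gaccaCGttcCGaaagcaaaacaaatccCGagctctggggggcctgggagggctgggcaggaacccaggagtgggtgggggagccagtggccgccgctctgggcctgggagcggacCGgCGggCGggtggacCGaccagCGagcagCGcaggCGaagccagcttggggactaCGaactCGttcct

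The 25 Hox bodies had a median difference of −2.56 points, against −11.8 over all bodies, and those of *Hoxd12* and *Hoxd3* differed by −14.9 and −15.3 points. Other Hox bodies overlapped between groups, such as *Hoxa2* at 36.5% and 22.8% against 30.5% and 28.8%, and *Hoxb3* at 14.3% and 11.6% against 13.6% and 12.8%. In 12 of the 25 bodies the replicates lay apart with shTet3 lower, a smaller share than the 77.2% of all bodies. The Hox bodies also started lower, with a median shScr oxBS level of 19.2% against 61.7% over all bodies.

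Among genes of the DNA methylation machinery, 7 of 17 lay in gene-rich windows, *Tet3* included. The 5 measured bodies had a median oxBS difference of −11.1 points, near the −11.8 over all bodies. At least 3 hypo-DMPs were present in 4 of them (background 68.6%). The *Tet3* promoter was at 1.14% and 1.29% with shScr and 0.918% and 1.26% with shTet3, and its body at 82.1% and 89.8% against 71.1% and 77.6%, with 14 hypo-DMPs at 62 CpGs. The bodies of *Dnmt1* and *Uhrf1*, which maintain 5mC at replication, differed by −14.2 and −11.1 points, at 69.5% and 83.4% against 56.9% and 67.5% and at 90.3% and 95.8% against 79.4% and 84.6%. Their promoters were at most 0.189% in each oxBS library. In the *Dnmt1* body the lower shScr library lay close to the higher shTet3 library. The body of *Tet1* was at 17.96% and 18.97% against 12.7% and 15.4%.

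Genes of other lineages had 15 members in gene-rich windows, with a median oxBS difference of −4.09 points over 9 promoters and of −12.5 points over 12 bodies, against −0.110 and −11.8 over all. Their median shScr oxBS levels were 12.4% in promoters and 50.7% in bodies, against 0.436% and 61.7% over all. *Myod1*, the muscle determination factor, had a promoter at 54.6% and 46.7% with shScr and 32.9% and 31.6% with shTet3, with 10 hypo-DMPs at 21 CpGs. The body of *Gata2*, a blood factor, was at 56.2% and 48.4% against 37.8% and 35.4% with 22 hypo-DMPs, and that of *Tbx5*, a heart factor, at 47.4% and 47.3% against 31.0% and 34.7% with 23. Of the 3 imprinted genes in gene-rich windows, *Dlk1* differed by −5.03 points, *Inpp5f* by 0.662 and *Mcts2* by 8.06 in the promoter.

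The difference between BS and oxBS libraries, which estimates 5hmC, was small in gene-rich windows. Over all their CpGs the shScr libraries were at 26.4% and 31.1% in BS and 26.0% and 30.8% in oxBS, a difference of 0.347 ± 0.0836 points (SD, n = 2). The shTet3 libraries were at 22.5% and 22.7% in BS and 22.3% and 22.4% in oxBS, a difference of 0.279 ± 0.0518 points. The other windows had similar differences, 0.332 points with shScr and 0.307 points with shTet3, so this was not particular to gene-rich windows. In gene-rich windows the difference was positive in both replicates in 176 of 275 with shScr and in 152 with shTet3. It was negative in both replicates in 11 and 16, and the shares over all windows were not counted. The exact permutation test, which does not pair libraries of the same DNA, gave p = 0.667 for shScr and p = 0.333 for shTet3. It therefore includes the gap between replicates and does not measure the spread of the paired differences. These were 0.406 and 0.288 points with shScr and 0.242 and 0.315 points with shTet3. Weighted by reads, the shScr difference was −0.586 points, so its sign depended on the weighting.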

How the data were processed

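DNA methylation was measured by oxRRBS in 8 libraries of NPCs, 2 BS and 2 oxBS libraries for each shRNA, from 100 ng of DNA each. Per the labels and the methods, reads were trimmed with Trim Galore and aligned to mm9 with Bismark. The deposited coverage of each CpG is a raw count of its calls, and the deposited percent is the share of them that stayed C (methylated) or became T. Percent times coverage gave whole methylated calls. All files list the same 757812 positions, which fall on CpGs of the forward strand of mm9 and are covered 5 times or more in every library.

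Windows were cut at whole megabases. CpGs covered at least 10 times in the 4 libraries compared were averaged without weights, per window (10 or more CpGs of a class), promoter (5 or more) or gene body (10 or more, outside all promoters; protein-coding genes of GENCODE vM1). Levels per library were compared by two-sided exact permutation tests. Window, promoter and body means in percent were fitted genome-wide with limma 3.58.1 (R 4.3.3) with trend and Benjamini-Hochberg adjustment (adjusted p under 0.05). DMPs were called from a logistic regression on counts with a likelihood ratio test over all CpGs tested. Scripts used Python 3.11.15 and were tested on simulated data.

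The genes and windows named are the 8 windows with the most listed CpGs and their 3 genes with the most listed CpGs, the 3 windows with the largest and smallest oxBS change among those with 50 or more CpGs above 40%, and, among promoters and bodies covered in all 8 libraries whose oxBS groups did not overlap, the 12 and 8 with the largest negative and the 6 and 4 with the largest positive difference. Windows at the threshold are given as counts. Members of the 10 lists, the promoters with hyper-DMPs and the sequences were named after their values were seen. The windows, lists and tests were chosen with earlier results of these data known. Sequences are from NCBIM37 (mm9), outside annotated exons. Alternatives covered the class, the thresholds, the coverage, the weighting, the tests, the windows and leaving out each library.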

Additional observations from a re-analysis of the deposited data

How the results depend on the processing

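The direction of the change at CpGs above 40% was kept under every alternative run, between −20.3 and −9.16 percentage points in oxBS and between −20.4 and −9.45 in BS, and between −21.2 and −9.85 (oxBS) and −21.8 and −10.6 (BS) when 1 library was left out. At CpGs at or below 40% it stayed between −2.79 and −0.617 points in oxBS and −2.81 and −0.415 in BS, and between −1.70 and −0.427 and −1.45 and −0.249 with 1 library left out. The gap between gene-rich and other windows ranged from 1.75 to 3.74 points in oxBS and 1.76 to 3.49 in BS, and from 1.77 to 3.82 and 1.97 to 3.71 with 1 library left out. Promoters called were 0 throughout. With 2 libraries a group, a lone control is assumed in these fits to vary like the other group. The spread of such a fit comes from the other group alone, so its number of calls does not measure the spread between controls.

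The number of gene-rich windows called lower by limma (0 with the settings of the report) was not stable, and the cause was not tested. The counts in this paragraph come without the share over all features fitted. They therefore describe stability alone and no trait of gene-rich windows. Above 40% in BS it was 270 with the class from shScr BS replicate 1, 207 with a border of 50%, 173 with 50 or more CpGs of the class and 226 without trend, and it ran from 0 to 275 with 1 library left out. In oxBS it was 161 with the class from replicate 1 and 126 without trend, and it ran from 0 to 274. After seeing the data, the class and the change were taken from different shScr replicates, which gave 270 and 222 windows in BS and 272 and 230 in oxBS above 40%. At or below 40% the first of these gave 272 windows in BS and 273 in oxBS, and leaving out 1 library gave 0 to 173 and 0 to 211. With the F test hypo-DMPs and hyper-DMPs were 0 in BS and oxBS, where 3980 and 9 (BS) and 4231 and 4 (oxBS) had an unadjusted p under 0.05 and over 10 points. This test has few degrees of freedom with 2 libraries a group. With 1 library left out, hypo-DMPs ran from 11203 to 40969 in BS and 13267 to 41306 in oxBS, and hyper-DMPs from 177 to 898 and 222 to 1313. Gene bodies called lower were 1 on the logit scale in oxBS and ran from 0 to 1726 in BS and 0 to 1881 in oxBS with 1 library left out, and those called higher from 0 to 6 and 0 to 2. The difference of BS and oxBS in shScr was −0.586 points when weighted by reads, and 0.284 to 0.423 with 1 library left out.

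The labels do not say whether same-numbered shScr and shTet3 libraries are pairs. Their deviations correlated at −0.0313 in BS and −0.0399 in oxBS, which shows no shared deviation but cannot exclude pairing. With the replicate number as a block, 69 gene-rich windows above 40% were called in BS and 24 in oxBS. Hypo-DMPs in gene-rich windows were then 32171 and 32325, and both counts again come without the share over all features. Of the named promoters, *Cercam* was at −0.888 points with wider promoters (2 kb upstream to 1 kb downstream), and leaving out 1 library moved *2600006K01Rik* between −0.682 and 8.18 points, *Hspa12b* between −1.13 and 6.78 and *Cercam* between −0.929 and 6.07, each negative only without shScr replicate 1, when the coverage minimum applied to 1 library fewer and admitted 16, 7 and 22 CpGs in place of 8, 5 and 10. The other named promoters and the named windows and bodies kept their direction.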
